A study of Mus musculus with 6 samples.

Results

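Quiescent microglia were described here as the microglia of mouse brain that carried microglial markers and stayed under a rule's limits for activation genes. The name stands for that rule alone. Members could still carry some activation genes, and the rule set no limit on interferon, antigen presentation or cell cycle genes. Microglia are the resident macrophages of the brain parenchyma. They survey the tissue, clear debris and synapses, and depend on CSF1 receptor signals for survival and on TGF-β for their identity. In tumours and inflamed tissue they can take on interferon-response, antigen-presenting and phagocytic states.

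A barcode was counted as a quiescent microglial cell by its raw UMIs. It needed at least 3 UMIs summed over Tmem119, Olfml3, Gpr34, Crybb1, Golm1 and Slc2a5, more of these than of border macrophage genes (Mrc1, Pf4, Cbr2, Cd163, Lyve1) and monocyte genes (Ms4a4c, Plac8, Lyz1, Ly6i, Ly6c2) together, and at most 1 UMI of the lymphocyte genes Cd3d, Cd3e, Cd3g, Trac, Nkg7 and Cd79a. Fewer than 3 genes could be detected of Csf1, Egr3, Tnf, Il1a and Hcar2, and fewer than 3 of Spp1, Apoc1, Fam20c, Gdf15, Gas2l3 and Lpl. The rule found 8510 members among 17089 barcodes kept of 17362 deposited. The members were thus chosen by the measured UMIs of these 33 genes, so their values below are a description and were not tested.

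Immune cells bearing the leukocyte antigen CD45 were sorted from mouse brain and sequenced with 10x Genomics 3′ v3 chemistry in 6 libraries. Of these, 2 came from gliomas with Trp53 and Rbpj both deleted (called Rbpj-deleted here), 2 from gliomas with Trp53 deleted and Rbpj intact (control), and 2 from healthy brain with both genes intact. Early tumours were dissected by green fluorescence from a Cre reporter in the Rosa locus, and the Cre driver, strain, sex and age of the mice are not given in the sources used here. The design text describes pools of 9 Rbpj-deleted tumours, 15 control tumours and 9 healthy brains, while the protocol describes 1 well for each mouse. Which animals entered which library is therefore unknown, and the p-values below measure the spread between libraries, which may be technical. RBPJ carries Notch signals to DNA, and Trp53 encodes p53. Both deletions are labelled as those of the tumours, so the mRNA in microglia does not check them. Rbpj stood at 41 and 29.7 CPM in the Rbpj-deleted libraries, 46.5 and 40.5 CPM in the control libraries and 23.9 and 39.6 CPM in the healthy libraries, and Trp53 at 89.1 and 103 CPM in the Rbpj-deleted libraries, 77.2 and 69.2 CPM in the control libraries and 85 and 80.5 CPM in the healthy libraries.

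Members numbered 549 and 441 in the Rbpj-deleted libraries, 151 and 161 in the control libraries and 5322 and 1886 in the healthy libraries. Their summed counts were 3278863 and 2784895, 1313081 and 1213312, and 33488830 and 11260359 in the same order, so the control tumours gave the least precise values. A member had a median of 5485 and 5165 UMIs in Rbpj-deleted tumours, 7752 and 6771 in control tumours and 5137 and 5988 in the healthy libraries. Barcode sequences were shared between deposited libraries in 119 cases, and 41 members had a barcode also kept in another library.

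The healthy libraries stood apart from each other in 30 genes that differed by over 4-fold at 50 CPM or more. Levels are given as CPM, counts scaled to the same total of quiescent microglial RNA in every library. Phgdh, an enzyme of serine synthesis, stood at 127 and 1.36 CPM in healthy replicates 1 and 2, and Trim30d at 0.718 and 64.1 CPM. The Rbpj-deleted libraries lay near healthy replicate 2 in both genes, with Phgdh at 4.17 and 11.8 CPM and Trim30d at 80.8 and 78.0 CPM. The control libraries lay near healthy replicate 1, with Phgdh at 89.2 and 79.3 CPM and Trim30d at 0.750 and 4.22 CPM. Over the 30 genes, 4 and 7 in the Rbpj-deleted libraries and 12 and 14 in the control libraries were nearer to healthy replicate 1. Tpm3-rs7 had the pattern of Trim30d, at 354 and 370 CPM in Rbpj-deleted tumours, 23.2 and 8.44 CPM in control tumours and 17.9 and 363 CPM in the healthy libraries. In Phgdh, Trim30d and Tpm3-rs7 the split cannot be told apart from the difference between the tumour groups. The pseudogene H2-Ea-ps stood at 2953 and 3113 CPM, 124 and 258 CPM, and 2.33 and 61.8 CPM in the same order, so the Rbpj-deleted libraries lay far above both healthy ones. The MHC class II gene H2-Eb1, which did not reach 50 CPM in healthy brain and is not among the 30, stood at 3161 and 3307 CPM in the Rbpj-deleted libraries, 20.2 and 46.4 CPM in the control libraries and 1.95 and 49.4 CPM in the healthy libraries. In H2-Ea-ps and H2-Eb1 healthy replicate 2 was above replicate 1, as the Rbpj-deleted libraries were above the control ones. The split cannot be told apart from the difference between the tumour groups in these genes either. Heat shock genes also split the healthy libraries, with Hspa1b at 123 and 1951 CPM and Hspb1 at 21.9 and 368 CPM in healthy replicates 1 and 2, and all 4 tumour libraries lay between these values in both genes. Ptn, a secreted growth factor, stood at 215 and 5.33 CPM in Rbpj-deleted tumours, 136 and 324 CPM in control tumours and 53.9 and 1.53 CPM in the healthy libraries.

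The label was checked against marker genes. Tmem119, a microglial surface protein, stood at 1720.4 and 1378 CPM in the Rbpj-deleted libraries, 1513 and 1641 CPM in the control libraries and 2227 and 2385 CPM in the healthy libraries. Every library was high, although the rule itself selects this gene. Cx3cr1 and Csf1r, receptors of microglia that the rule did not use, stood above 1000 CPM in every library. Non-microglial macrophages were barcodes with border macrophage and monocyte genes above microglial ones. They held Cx3cr1 at 668 and 502 CPM in Rbpj-deleted, 180 and 539 in control and 788 and 434 in healthy libraries. Csf1r stood there at 1798 and 1279, 697 and 1468, and 2602 and 2009 CPM. A Csf1r level above 1000 CPM does not by itself mark microglia. P2ry12, the purinergic receptor often used to define homeostatic microglia, was low in every library, at 12.8 and 6.47 CPM in the Rbpj-deleted libraries, 15 and 18.6 CPM in the control libraries and 8.33 and 23.7 CPM in the healthy libraries. Slc2a5, a fructose transporter, and Olfml3, a secreted protein, differed between the healthy libraries. Slc2a5 stood at 74.1 and 54.4 CPM in the Rbpj-deleted libraries, 274 and 296 CPM in the control libraries and 498 and 78 CPM in the healthy libraries, and Olfml3 at 833 and 1423 CPM in the Rbpj-deleted libraries, 1391 and 1476 CPM in the control libraries and 2060.4 and 637 CPM in the healthy libraries. The T cell gene Cd3e, which the rule limits, was at 1.6 and 1.52 CPM in the Rbpj-deleted libraries, 0.75 and 1.69 CPM in the control libraries and 0.259 and 0.0847 CPM in the healthy libraries, and the B cell gene Ms4a1 was not detected in any library. Other markers of lymphocytes were present, and their summed levels are given with the interferon genes.

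Among all microglia by the markers, quiescent cells made up 44.5% (exact 95% interval 41.7 to 47.4) and 71.2% (67.5 to 74.8) in Rbpj-deleted tumours. They made up 54.9% (48.8 to 60.9) and 65.4% (59.1 to 71.4) in control tumours, and 96.8% (96.3 to 97.2) and 97.4% (96.6 to 98.1) in healthy brain. The healthy libraries lay above all 4 tumour libraries, whereas the tumour groups overlapped. The means were 57.9 ± 18.9%, 60.2 ± 7.45% and 97.1 ± 0.450% in Rbpj-deleted tumours, control tumours and healthy brain (SD, n = 2 libraries each). The exact two-sided permutation p was 0.33 for either tumour group against healthy brain, the smallest that 2 against 2 libraries allow, and 1 between the tumour groups. In a sorted suspension, fewer quiescent cells and more cells of the other classes give the same share. Intervals cover counting error only. The rule counts detected genes, and deeper cells can pass more of its limits. With every barcode thinned to 3000 UMIs first, the shares were 64.1% and 88.2% in Rbpj-deleted tumours, 81.6% and 87.1% in control tumours and 99.4% and 99.6% in the healthy libraries.

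**Figure D1:**
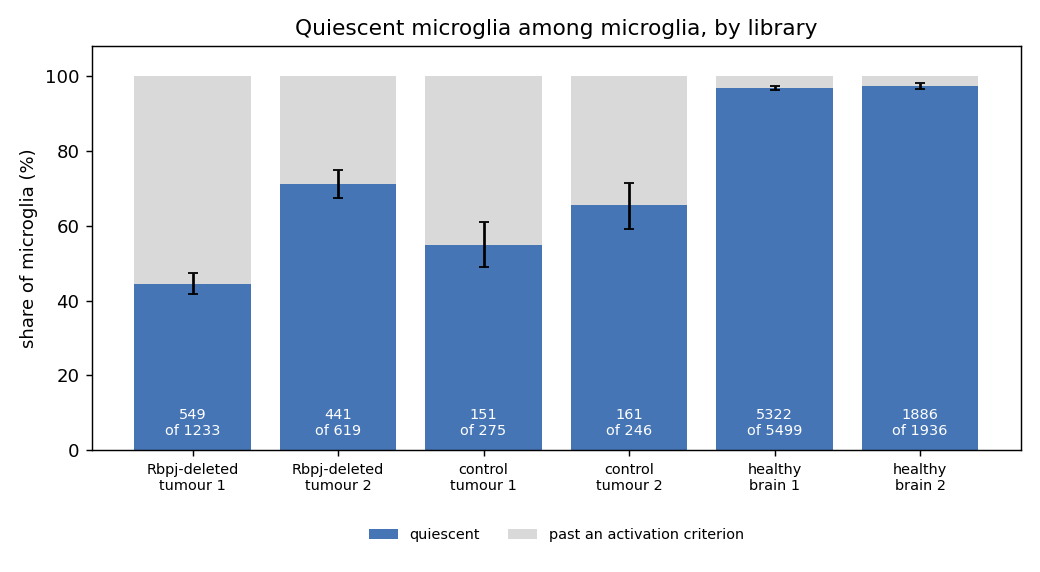
Share of all microglia that were quiescent, in percent, by library, with the Rbpj-deleted tumours left, control tumours in the middle and healthy brain right; stacked bars are libraries, blue is the quiescent share and grey the microglia past an activation criterion, and error bars are exact 95% binomial intervals. Both healthy libraries lie at 96.8% and 97.4%, above the 4 tumour libraries at 44.5% to 71.2%.

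Most of the other microglia in tumours carried the Csf1-, Egr3-, Tnf-type programme. That class held 658 and 93 cells in Rbpj-deleted tumours, 115 and 84 in control tumours and 130 and 32 in the healthy libraries. The Spp1-, Apoc1-, Lpl-type class held 26 and 85, 9 and 1, and 47 and 18 cells in the same order. Rbpj-deleted replicate 1 stood out by its many Csf1-type cells and Rbpj-deleted replicate 2 by its Spp1-type cells. The boundary was crowded in tumours: 177 and 84 members in Rbpj-deleted tumours, 50 and 46 in control tumours and 443 and 129 in the healthy libraries carried 2 genes of the Csf1 set, just inside the rule. Just outside, 236 and 60, 47 and 44, and 102 and 27 microglia carried 3. For the lineage limit, 25 and 13, 2 and 9, and 29 and 34 members had exactly 3 marker UMIs, and 45 and 9, 5 and 8, and 39 and 31 barcodes with 2 would otherwise have entered.

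Members in tumours were less free of activation genes than members in healthy brain. None of the 11 activation genes was detected in 21.9% and 26.1% of members in Rbpj-deleted tumours, 19.2% and 30.4% in control tumours and 59.4% and 60.9% in the healthy libraries. Csf1, the growth factor that the rule counts, stood at 142 and 84.5 CPM in the Rbpj-deleted libraries, 74.2 and 102 CPM in the control libraries and 37.1 and 24.7 CPM in the healthy libraries in the members. Spp1, which encodes osteopontin and is also a gene of the rule, stood at 571 and 531 CPM in the Rbpj-deleted libraries, 13.5 and 45.6 CPM in the control libraries and 17.6 and 18.2 CPM in the healthy libraries. Spp1 was high in both Rbpj-deleted libraries and low in the other 4. These values come from the genes that set the boundary and were not tested.

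Each gene was then tested in the summed counts of quiescent microglia with edgeR's quasi-likelihood test and Benjamini-Hochberg adjustment over 10236 genes, called at an adjusted p under 0.05. Fold changes are on the log2 scale ± SE. Rbpj-deleted tumours against healthy brain gave 611 calls, of which 459 were higher and 152 lower in the tumours. Control tumours against healthy brain gave 123 calls, 120 higher and 3 lower. Rbpj-deleted against control tumours gave 1 call, a higher one. With library size alone in place of the TMM scaling the first comparison had 348 higher and 278 lower calls, and the median of all genes shifted to -0.15. The share of tested genes called was 5.97% (4.48% higher, 1.48% lower) in the first comparison, 1.2% (1.17% higher, 0.0293% lower) in the second and 0.00977% in the third. Rule genes made up 8 of the calls in the first comparison, 1 in the second and 0 in the third. The libraries of the compared groups did not overlap in 54.6%, 46.7% and 46.3% of tested genes, so a lack of overlap alone says little here. The control and Rbpj-deleted comparisons use the same healthy libraries. DESeq2 called 1012, 375 and 146 genes, the last among only 1901 to which it gave an adjusted p. In edgeR 2315, 1232 and 1327 genes had an unadjusted p under 0.05. The first count was 1191 without Rbpj-deleted replicate 1, 157 without Rbpj-deleted replicate 2, 199 and 202 without control replicate 1 or 2, and 356 and 357 without healthy replicate 1 or 2. The second was 45 and 34 without control replicate 1 or 2.

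Genes of the interferon-γ response were higher in quiescent microglia of both tumour groups than of healthy brain. Interferon-γ, released mainly by T and NK cells, acts through Irf1 and other factors on the guanylate-binding proteins, the immunity-related GTPases and antigen presentation. Of the 22 listed genes 18 were tested. In Rbpj-deleted tumours 14 rose and 0 fell, and in control tumours 12 rose and 0 fell, against backgrounds of 4.48% and 1.17% of genes called higher. The median log2 change was 2.60 and 2.50 for the list in Rbpj-deleted and control tumours, beside -0.01 over all genes in each comparison.

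The promoters of 3 called interferon genes are shown because they were among the called interferon genes with the largest fold changes in control tumours. The promoter of Iigp1, whose change was larger than that of Gbp2 and Gbp5, is not shown, and Gbp4, Nlrc5, Gbp8, Zbp1 and Ifi204 have no entry in the table. The sequences are from RefSeq (GRCm38.p6), 5′ to 3′ from 250 bases before the start of the gene to 50 after it. Capitals mark matches to the γ-activated site TTCNNNGAA and to the interferon-stimulated response element (GAAA, any 2 bases, GAAA), read on both strands. They are Cxcl9 at chr5:92328030-92328329 (minus strand), Gbp2 at chr3:142620413-142620712 (plus strand) and Gbp5 at chr3:142496684-142496983 (plus strand).
Cxcl9: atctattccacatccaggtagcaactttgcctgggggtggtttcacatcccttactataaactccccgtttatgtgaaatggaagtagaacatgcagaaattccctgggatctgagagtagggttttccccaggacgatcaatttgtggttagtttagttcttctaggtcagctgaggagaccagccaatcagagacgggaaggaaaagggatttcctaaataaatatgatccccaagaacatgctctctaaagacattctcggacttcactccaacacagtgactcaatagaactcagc
Gbp2: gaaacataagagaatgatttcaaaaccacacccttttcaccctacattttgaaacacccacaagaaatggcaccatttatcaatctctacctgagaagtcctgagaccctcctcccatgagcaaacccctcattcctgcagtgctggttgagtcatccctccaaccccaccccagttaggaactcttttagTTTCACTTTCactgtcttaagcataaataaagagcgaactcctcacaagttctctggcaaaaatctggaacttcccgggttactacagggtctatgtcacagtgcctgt
Gbp5: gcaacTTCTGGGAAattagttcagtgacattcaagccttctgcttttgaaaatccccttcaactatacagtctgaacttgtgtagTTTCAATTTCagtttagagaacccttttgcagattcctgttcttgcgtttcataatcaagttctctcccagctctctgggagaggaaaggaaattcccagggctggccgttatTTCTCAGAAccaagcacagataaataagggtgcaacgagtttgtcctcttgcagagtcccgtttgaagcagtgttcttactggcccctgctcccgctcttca
The Gbp5 promoter held 2 γ-activated sites, starting 245 and 52 bases before the gene start, and 1 response element starting 165 bases before it. The Gbp2 promoter held 1 response element, 59 bases before the RefSeq start, and neither motif was found in the Cxcl9 window. The GENCODE start of Gbp2 given below lies upstream of both that element and the RefSeq start. Among the 26 called genes of the interferon lists, 17 had a promoter sequence. Of these 4 held the γ-activated site and 9 the response element, while 8.47% and 3.49% of all 27025 promoters of that length held them. A match is a description of letters only.

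Gbp2, a guanylate-binding protein (ENSMUSG00000028270, chromosome 3:142620602-142638008, GENCODE vM21 on mm10), stood at 189 and 352 CPM in the Rbpj-deleted libraries, 331 and 256 CPM in the control libraries and 5.03 and 9.32 CPM in the healthy libraries. All 4 tumour libraries lay far above both healthy ones and overlapped each other. The log2 fold change was 5.27 ± 0.46 in Rbpj-deleted tumours (edgeR adjusted p = 0.00261) and 5.39 ± 0.46 in control tumours (adjusted p = 0.00458).

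Gbp5, which encodes another member of that family, stood at 66.7 and 76.5 CPM in the Rbpj-deleted libraries, 75.7 and 76.8 CPM in the control libraries and 12.4 and 8.98 CPM in the healthy libraries. The tumour libraries were near each other and did not overlap the healthy ones, with log2 fold changes of 2.73 ± 0.22 and 2.82 ± 0.23 in Rbpj-deleted and control tumours (edgeR adjusted p = 0.000264 and 0.000314). Nlrc5, the transactivator of MHC class I genes, stood at 30.8 and 28.2 CPM in the Rbpj-deleted libraries, 21.7 and 43.9 CPM in the control libraries and 0.977 and 0.593 CPM in the healthy libraries. It was high in every tumour library, by log2 5.12 ± 0.41 in Rbpj-deleted tumours and 5.27 ± 0.42 in control tumours (edgeR adjusted p = 0.000264 and 0.000314). Iigp1, an immunity-related GTPase, stood at 111 and 126 CPM in the Rbpj-deleted libraries, 265 and 183 CPM in the control libraries and 2.33 and 4.32 CPM in the healthy libraries, with changes of 5.22 ± 0.34 and 6.14 ± 0.35 (edgeR adjusted p = 0.00019 and 0.000158). These rises held with any single library left out. With members limited to cells without any activation gene, the control call was lost for Iigp1 (edgeR adjusted p = 0.0978) and Gbp2 (0.175). Without any UMI of other lineages Iigp1 lost its call in Rbpj-deleted (0.0835) and control tumours (0.32).

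Other genes of the pathway rose with them. Irf1, a transcription factor, stood at 46.5 and 46.4 CPM in the Rbpj-deleted libraries, 40.5 and 36.3 CPM in the control libraries and 7.33 and 8.64 CPM in the healthy libraries, a log2 change of 2.55 ± 0.21 in Rbpj-deleted and 2.27 ± 0.23 in control tumours (edgeR adjusted p = 0.000264 and 0.00117). Gbp4, of the Gbp2 family, stood at 7.37 and 12.2 CPM in the Rbpj-deleted libraries, 34.5 and 15.2 CPM in the control libraries and 0.287 and 0.0847 CPM in the healthy libraries, a change of 5.37 ± 0.63 and 6.73 ± 0.64 (edgeR adjusted p = 0.00152 and 0.000997). Of its 31-base words 21.6% are shared with other genes. Cd274, the checkpoint ligand PD-L1, stood at 38.5 and 40.7 CPM in the Rbpj-deleted libraries, 29.2 and 38 CPM in the control libraries and 5.95 and 5.42 CPM in the healthy libraries, a change of 2.79 ± 0.24 and 2.55 ± 0.25 (edgeR adjusted p = 0.000264 and 0.00106). The tumour libraries of Irf1 and Cd274 lay close together and above healthy brain, and Gbp4 was highest in control tumours. Serpina3f, a serine protease inhibitor, had 58 UMIs in Rbpj-deleted tumours, 62 in control tumours and 0 in healthy brain. Against a floor of 3 UMIs over the healthy group it was at least 157-fold higher in Rbpj-deleted tumours and at least 382-fold higher in control tumours. Serpina3g, its relative, stood at 14.4 and 44.9 CPM in the Rbpj-deleted libraries, 15 and 20.2 CPM in the control libraries and 0.144 and 0.254 CPM in the healthy libraries (log2 7.27 ± 0.70 and 6.53 ± 0.73 in Rbpj-deleted and control tumours, edgeR adjusted p = 0.00151 and 0.00573), with 30.3% of its 31-base words shared with other genes. Gbp2b, another guanylate-binding protein, had 115 UMIs in Rbpj-deleted tumours and 0 in healthy brain, at least 311-fold higher, and its call was lost without Rbpj-deleted replicate 1 (adjusted p = 0.066), without Rbpj-deleted replicate 2 (0.0762), and without healthy replicate 1 (0.0896) or 2 (0.0636) in edgeR's test.

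Cxcl9, a chemokine that attracts T cells through CXCR3, stood at 598 and 717 CPM in the Rbpj-deleted libraries, 127 and 367 CPM in the control libraries and 1.7 and 0.847 CPM in the healthy libraries. All tumour libraries were above healthy brain. The Rbpj-deleted libraries were above the control ones, but Cxcl9 was not called between the tumour groups. Its log2 change was 8.88 ± 0.76 in Rbpj-deleted tumours and 7.47 ± 0.73 in control tumours (edgeR adjusted p = 0.00756 and 0.0213). The rise was uneven: the top 5% of cells held 92.5% and 92.0% of its UMIs in Rbpj-deleted tumours and 90.6% and 93.8% in control tumours. The call in Rbpj-deleted tumours was lost without Rbpj-deleted replicate 1 or 2 (adjusted p = 0.0511 and 0.139). In control tumours it was lost without Rbpj-deleted replicate 1 or 2 (0.16 and 0.154) and without healthy replicate 1 or 2 (0.0621 and 0.0863).

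**Figure D2:**
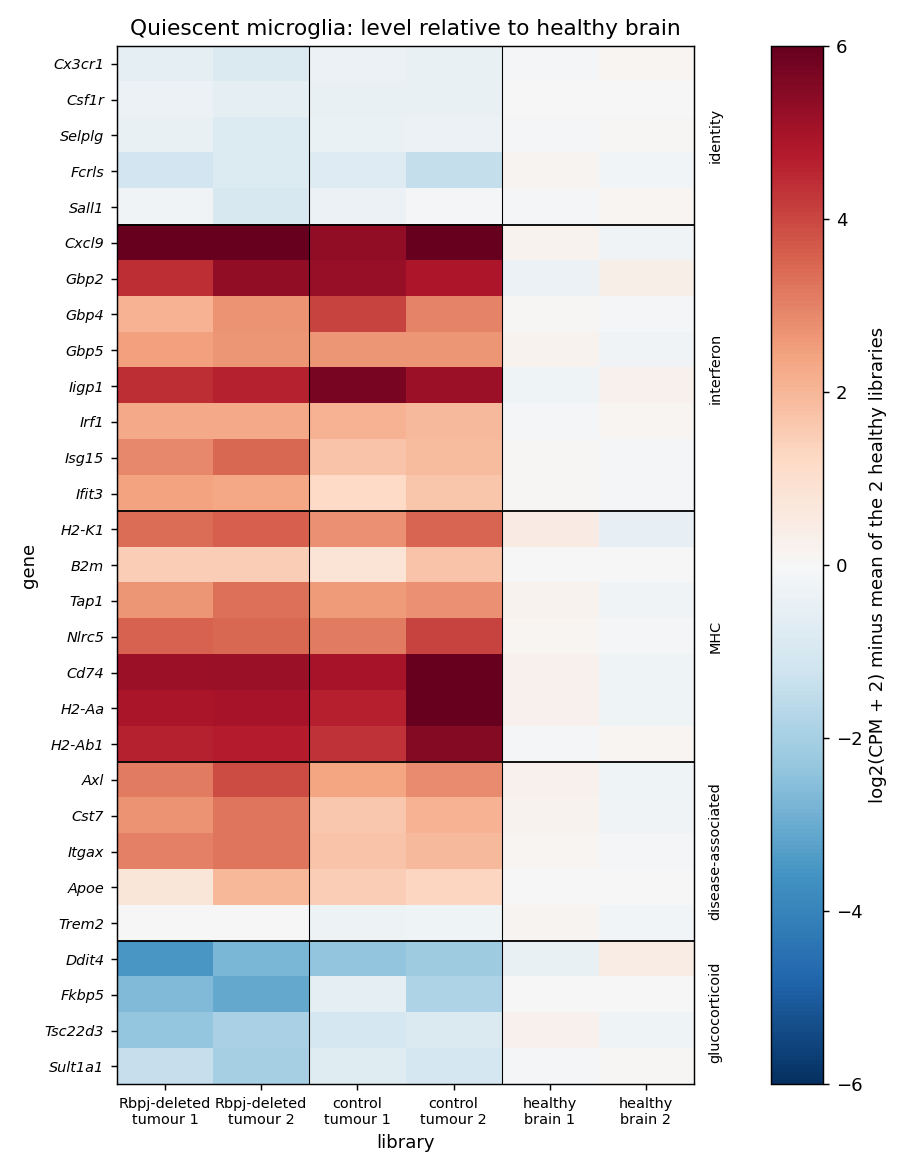
Level of named genes in quiescent microglia of each library, as log2(CPM + 2) minus the mean of the healthy libraries, with Rbpj-deleted tumours left, control tumours in the middle and healthy brain right, and colours cut at 6 in either direction. Interferon and antigen presentation genes are high in all 4 tumour libraries, and Ddit4 and Fkbp5 are low. Gbp2 is at 189 to 352 CPM in the tumour libraries and 5.03 and 9.32 CPM in the healthy ones. The glucocorticoid block holds only the 4 of 13 tested genes that were called lower in Rbpj-deleted tumours.

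The type I interferon genes, which encode antiviral effectors such as Isg15, the Ifit proteins and viperin (Rsad2), also rose in part in both tumour groups. Of 30 tested, 24 rose and 0 fell in Rbpj-deleted tumours, and 14 rose and 0 fell in control tumours. Of all genes 4.48% and 1.17% were called higher, and the medians of the list were 2.37 and 1.59. Between the tumour groups 0 of the 30 were called, although the median was 0.76 and 28 had a positive estimate. The control count was 3 and 1 without control replicate 1 or 2.

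Isg15, a ubiquitin-like protein, stood at 155 and 229 CPM in the Rbpj-deleted libraries, 68.2 and 77.6 CPM in the control libraries and 20.2 and 18.1 CPM in the healthy libraries. The 3 groups did not overlap, with the Rbpj-deleted libraries highest, but Isg15 was not called between the tumour groups. The log2 change was 3.32 ± 0.23 in Rbpj-deleted tumours (edgeR adjusted p = 0.000158) and 1.92 ± 0.23 in control tumours (adjusted p = 0.00373, and 0.0591 and 0.09 without control replicate 1 or 2). The control change was 0.69 with members limited to cells without any activation gene (adjusted p = 0.769) and 0.83 without any UMI of other lineages (0.639). Ifi204, a DNA sensor, stood at 111 and 133 CPM in the Rbpj-deleted libraries, 86.2 and 100.4 CPM in the control libraries and 9.6 and 5.59 CPM in the healthy libraries. Its change was 3.97 ± 0.27 in Rbpj-deleted and 3.58 ± 0.28 in control tumours (edgeR adjusted p = 0.000158 and 0.000314). Rsad2 stood at 32.1 and 19 CPM in the Rbpj-deleted libraries, 9.75 and 6.75 CPM in the control libraries and 1.26 and 1.61 CPM in the healthy libraries and Ifit3 at 98.7 and 91.3 CPM in the Rbpj-deleted libraries, 41.2 and 58.2 CPM in the control libraries and 17.5 and 16 CPM in the healthy libraries. Both rose in Rbpj-deleted tumours, by log2 4.17 ± 0.40 and 2.50 ± 0.21 (edgeR adjusted p = 0.000479 and 0.000264).

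Genes of MHC class I presentation, which load peptides for CD8 T cells, rose in both tumour groups. Of 17 tested, 12 rose and 0 fell in Rbpj-deleted tumours and 8 rose and 0 fell in control tumours. The shares of all genes called higher were 4.48% and 1.17%, and the list medians were 2.51 and 1.53. The counts were 6 without Rbpj-deleted replicate 2 in the first comparison, and 5, 5 and 4 in the second without Rbpj-deleted replicate 1, Rbpj-deleted replicate 2 or control replicate 2. Tap1, a subunit of the peptide transporter, stood at 199 and 313 CPM in the Rbpj-deleted libraries, 183 and 212 CPM in the control libraries and 35.2 and 25.4 CPM in the healthy libraries, with log2 changes of 3.07 ± 0.27 and 2.70 ± 0.27 in Rbpj-deleted and control tumours (edgeR adjusted p = 0.000323 and 0.00144). The immunoproteasome subunit Psmb9 stood at 323 and 436 CPM in the Rbpj-deleted libraries, 230.2 and 311 CPM in the control libraries and 68.4 and 65 CPM in the healthy libraries, a change of 2.51 ± 0.23 in Rbpj-deleted tumours (adjusted p = 0.000323). The class I heavy chain gene H2-Q7 stood at 276 and 210.1 CPM in the Rbpj-deleted libraries, 103 and 267 CPM in the control libraries and 6.64 and 4.83 CPM in the healthy libraries. Its sequence overlaps those of relatives, with 24.9% of the 31-base words of its last 600 bases shared with other genes (59.1% for H2-Q6), so counts could be split between these genes.

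MHC class II genes, which present peptides to CD4 T cells, rose in part. Of 12 tested, 6 rose and 0 fell in Rbpj-deleted tumours and 4 rose and 0 fell in control tumours. Beside them 4.48% and 1.17% of all genes were called higher, and the list medians were 2.36 and 1.77. Cd74, the invariant chain, stood at 5914 and 6077 CPM in the Rbpj-deleted libraries, 5092 and 11293 CPM in the control libraries and 196 and 139.7 CPM in the healthy libraries. Every tumour library was far above the healthy ones, and control replicate 2 was the highest. The change was 5.16 ± 0.43 in Rbpj-deleted tumours (edgeR adjusted p = 0.00139, and 0.104 without Rbpj-deleted replicate 2). In control tumours it was 5.61 ± 0.44 (edgeR adjusted p = 0.00216, and 0.0852 and 0.0866 without Rbpj-deleted replicate 1 or 2). H2-Ab1, a class II chain, stood at 2853 and 3125 CPM in the Rbpj-deleted libraries, 2393 and 5438 CPM in the control libraries and 108 and 125 CPM in the healthy libraries (log2 4.68 ± 0.41 and 5.07 ± 0.42 in Rbpj-deleted and control tumours, edgeR adjusted p = 0.0014 and 0.00216). Its calls were lost without Rbpj-deleted replicate 2 in Rbpj-deleted tumours (0.0948) and without either Rbpj-deleted replicate in control tumours (0.078 and 0.0774). The count of class II calls was 1 in Rbpj-deleted tumours without Rbpj-deleted replicate 2 and 3 without either control replicate. In control tumours it was 1 without either Rbpj-deleted replicate and 7 without healthy replicate 2. With members limited to cells that lacked all 11 activation genes it was 1 of 10 in Rbpj-deleted tumours and 0 of 10 in control tumours.

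The interferon and antigen presentation RNA was found in many tumour microglia. After each cell was thinned to 2000 UMIs, at least 1 UMI of the interferon-γ list was found in 68.6% and 76.7% of members in Rbpj-deleted tumours, 54.7% and 67.7% in control tumours and 37.1% and 33.7% in the healthy libraries. The median member held 28 and 29 UMIs of MHC class I genes in Rbpj-deleted tumours, 11 and 35 in control tumours and 5 and 4 in the healthy libraries. For MHC class II genes the medians were 14 and 16, 4 and 26, and 2 and 2 in the same order. Control replicate 1 was the lowest tumour library in all 3 measures. Members with under 2000 UMIs were left out, 72 and 33 in Rbpj-deleted tumours, 14 and 34 in control tumours and 335 and 225 in the healthy libraries.

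Single genes were traced over the cells in the same way. Cd74 was detected in 79.2% and 76.2% of thinned members in Rbpj-deleted tumours, 50.4% and 89.8% in control tumours and 8.68% and 7.16% in the healthy libraries. T cells, where little Cd74 should be made, had it in 69.6% and 27.9% in Rbpj-deleted tumours and 14.4% and 29.6% in control tumours. The members lay above the T cells in all 4 libraries, by least in Rbpj-deleted replicate 1. These T cells were limited to at most 1 UMI of the rule's microglial, border macrophage and monocyte genes together, while members could hold more. Lower values of Cd74, H2-Aa and Gbp2 in the T cells can depend on that choice, and the source of the RNA was not tested. The T cells numbered 23, 43, 104 and 27 after thinning and had median counts of 3817, 2976, 5981 and 6973 in these 4 libraries. H2-Aa was found in 59.1% and 51.7% of members, against 34.8% and 18.6% of T cells, in Rbpj-deleted tumours, and in 34.3% and 72.4% of members, against 8.65% and 14.8% of T cells, in control tumours. Gbp2 was detected in 21.2% and 29.9% of members in Rbpj-deleted tumours, 19.7% and 30.7% in control tumours and 1.20% and 0.843% in the healthy libraries, and in 8.70% and 18.6% of T cells of Rbpj-deleted tumours and 12.5% and 11.1% of T cells of control tumours. Among the 459 higher calls of Rbpj-deleted tumours, 108 had 80% or more of their UMIs in the top 5% of cells in both libraries, and 13 had 50% or more in 1 cell of a library. Among the 120 of control tumours these counts were 36 and 23.

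**Figure D3:**
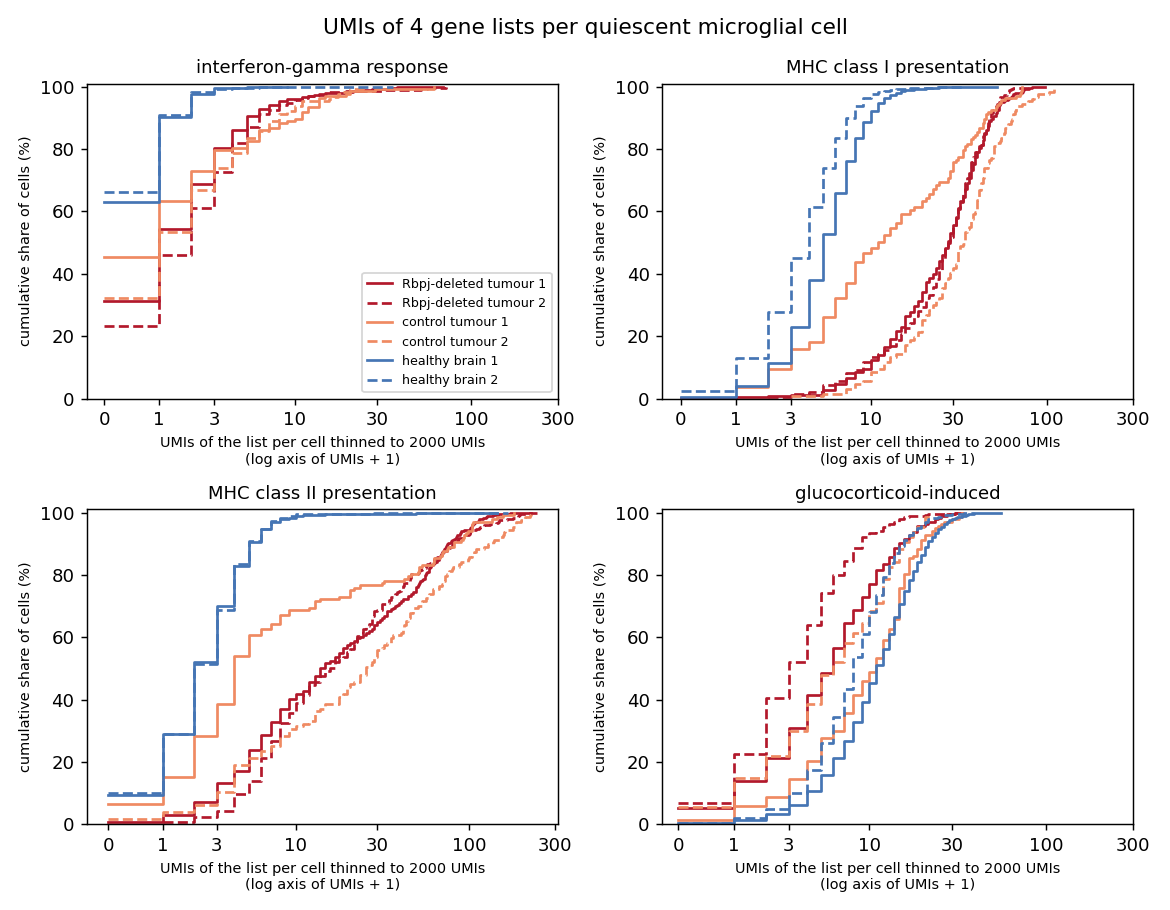
Cumulative share of quiescent microglia in percent (vertical axis) against the UMIs per cell of 4 gene lists (log axis of UMIs + 1), with each cell thinned to 2000 UMIs; lines are libraries, in the legend order Rbpj-deleted tumours, control tumours and healthy brain. The median MHC class I value is 28 and 29 UMIs in Rbpj-deleted tumours and 11 and 35 in control tumours, above 5 and 4 in healthy brain.

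The summed markers of T and NK cells moved with these genes, mostly through Ccl5, which the chemokine list also holds. The 18 listed markers summed to 418 and 814 CPM in Rbpj-deleted tumours, 256 and 308 CPM in control tumours and 30 and 44.9 CPM in the healthy libraries, and 16 to 18 of them were detected in each library. Most of that sum was Ccl5, at 342 and 717 CPM in the Rbpj-deleted libraries, 199 and 253 CPM in the control libraries and 10.7 and 4.41 CPM in the healthy libraries, which rose in both comparisons (log2 6.08 ± 0.65 and 4.85 ± 0.62, edgeR adjusted p = 0.0131 and 0.047). The Ccl5 call was lost without Rbpj-deleted replicate 2 in Rbpj-deleted tumours (0.0523), and without either Rbpj-deleted or either control replicate in control tumours (0.136 and 0.179 without control replicate 1 or 2, 0.0706 and 0.0578 without Rbpj-deleted replicate 1 or 2). Of 8 tested T and NK markers outside the rule, 4 rose in Rbpj-deleted tumours and 1 in control tumours. The shares of all genes called higher were 4.48% and 1.17%. Monocyte markers summed to 260 and 280, 508 and 184, and 108 and 69.6 CPM, with 10 to 12 of 12 detected in each library. Border macrophage markers summed to 223 and 728, 268 and 222, and 440 and 172 CPM, with 9 to 12 of 12 detected. Dendritic markers summed to 1820 and 1189, 1455 and 1808, and 2106 and 2267 CPM, with 9 or 10 of 10 detected, and most of that was Siglech, which microglia also express. Neutrophil markers summed to 347 and 483, 751 and 235, and 788 and 442 CPM, and B cell markers to 510 and 456, 446 and 448, and 419 and 394 CPM. Markers of glia, neurons and vessels summed to 134 and 58.6, 109 and 82.7, and 291 and 78.0 CPM, and erythroid markers to 0.962 and 0.761, 1.5 and 1.69, and 7.70 and 34.2 CPM. Of 4 tested monocyte markers outside the rule 1 rose in Rbpj-deleted tumours (Fn1). Of 9 dendritic markers Clec9a and Ccr7 rose in Rbpj-deleted tumours, Clec9a in control tumours, and Ccr7 in Rbpj-deleted against control tumours. None of the tested border, neutrophil, B cell, brain cell or erythroid markers was called in any comparison. The part of these cells in the results was not tested.

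The calls were recomputed in stricter sets of members, which hold fewer cells. Cells without any of the 11 activation genes numbered 120 and 115 in Rbpj-deleted tumours, 29 and 49 in control tumours and 3159 and 1149 in the healthy libraries. Cells without any UMI of the border macrophage, monocyte and lymphocyte genes of the rule numbered 292 and 201 in Rbpj-deleted tumours, and fewest in control replicate 1, at 85. Of 75 called genes chosen for naming in Rbpj-deleted tumours, 27 remained called, 23 lost the call and 25 were not tested in the first set, and 46, 16 and 13 did so in the second. Of 37 in control tumours these counts were 9, 18 and 10 in the first set and 14, 18 and 5 in the second. No direction reversed among the genes tested. In the first set the 23 lost calls of Rbpj-deleted tumours included Cd74, H2-Ab1, Ccl5, Cxcl9, Peg10, Ralgps1, Tmc7, Fcrls, Ltc4s and Jun (edgeR adjusted p from 0.0578 to 0.738 for these). The 18 of control tumours included Gbp2, Iigp1, Isg15, Cd74, H2-Ab1, Ccl5, Cxcl9, Axl, Ddit4, Ccdc80 and Rgs7bp (0.0978 to 0.769 for these). In the second set the 16 of Rbpj-deleted tumours included Iigp1, H2-Ab1, Ccl5, Cxcl9, Fcrls and Ltc4s (0.0701 to 0.118 for these), and all 16 ran from 0.06 to 0.515. The 18 of control tumours included C3, Iigp1, Itgax, Isg15, Gbp4, Cd74, H2-Ab1, Ccl5, Cxcl9 and Rgs7bp (0.051 to 0.639 for these).

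The genes that define microglial identity gave few calls. Of 28 tested homeostatic surface and secreted genes, 0 rose and 3 fell in Rbpj-deleted tumours (Ecscr, Ltc4s and Fcrls), where 1.48% of all genes were called lower, and 0 were called in control tumours. The median change was -0.39 in Rbpj-deleted tumours and -0.34 in control tumours, with 7 and 6 positive estimates. The 3 falls were 7 without Rbpj-deleted replicate 1, 0 without Rbpj-deleted replicate 2, and 1 without control replicate 1, control replicate 2 or healthy replicate 2. Ecscr, a membrane protein, stood at 64.4 and 57.5 CPM in the Rbpj-deleted libraries, 104 and 127 CPM in the control libraries and 123 and 177 CPM in the healthy libraries. The Rbpj-deleted libraries were lowest, by log2 -1.29 ± 0.22 (edgeR adjusted p = 0.0119, and 0.0733 without Rbpj-deleted replicate 2). Fcrls, an Fc receptor-like microglial protein, stood at 1373 and 1717 CPM in the Rbpj-deleted libraries, 1783 and 1138 CPM in the control libraries and 3358 and 2742 CPM in the healthy libraries, and its fall of log2 -0.98 ± 0.25 in Rbpj-deleted tumours (edgeR adjusted p = 0.049) lost its call with any 1 of the 6 libraries left out, at adjusted p from 0.066 to 0.152. For Ltc4s, a leukotriene synthase, the fall of log2 -0.75 ± 0.18 (edgeR adjusted p = 0.0426) was lost without every library but Rbpj-deleted replicate 1, at adjusted p from 0.0943 to 0.163.

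The other identity genes were not called. Cx3cr1, the fractalkine receptor, stood at 1735 and 1400.1 CPM in the Rbpj-deleted libraries, 1999 and 1841 CPM in the control libraries and 2359 and 2687 CPM in the healthy libraries. Csf1r, the receptor for CSF1 and IL-34, stood at 3534 and 3031 CPM in the Rbpj-deleted libraries, 3275 and 3336 CPM in the control libraries and 4590.2 and 4367 CPM in the healthy libraries. The tumour libraries of both genes lay below the healthy ones. Selplg stood at 1933 and 1468 CPM in the Rbpj-deleted libraries, 1974 and 2015 CPM in the control libraries and 2448 and 2762 CPM in the healthy libraries, and Siglech at 1452 and 872 CPM in the Rbpj-deleted libraries, 1159 and 1508 CPM in the control libraries and 1685 and 1891 CPM in the healthy libraries. Trem2, a lipid-sensing receptor, stood at 3358 and 3333 CPM in the Rbpj-deleted libraries, 2713 and 2773 CPM in the control libraries and 3688 and 2998 CPM in the healthy libraries, lowest in the control libraries, and the complement gene C1qa at 13489 and 18512 CPM in the Rbpj-deleted libraries, 9655 and 10404 CPM in the control libraries and 11629 and 10047 CPM in the healthy libraries, highest in the Rbpj-deleted ones. P2ry13, like P2ry12, was low at 1.92 and 1.9 CPM in the Rbpj-deleted libraries, 3.0 and 5.06 CPM in the control libraries and 1.78 and 5.25 CPM in the healthy libraries.

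Transcription factors of microglia gave 1 call. Of 24 tested, 0 rose and 1 fell in Rbpj-deleted tumours and 0 were called in control tumours, with medians of -0.54 and -0.20. In Rbpj-deleted tumours 1.48% of all genes were called lower. Sall1, a factor that specifies microglia, stood at 313 and 181 CPM in the Rbpj-deleted libraries, 277 and 344 CPM in the control libraries and 332 and 388 CPM in the healthy libraries. Spi1, which encodes PU.1, stood at 627 and 726 CPM in the Rbpj-deleted libraries, 583 and 488 CPM in the control libraries and 601 and 506 CPM in the healthy libraries. The 1 fall was Jun, an immediate early gene, at 4653 and 4050.3 CPM in the Rbpj-deleted libraries, 5595 and 6563 CPM in the control libraries and 9669.6 and 7053 CPM in the healthy libraries (log2 -0.94 ± 0.22, edgeR adjusted p = 0.0346). Its call was lost without Rbpj-deleted replicate 2, control replicate 1 or 2, or healthy replicate 1 (adjusted p = 0.134, 0.119, 0.115 and 0.164). Immediate early genes differed between the healthy libraries, with Fosb at 169 and 42.6 CPM in the Rbpj-deleted libraries, 417 and 423 CPM in the control libraries and 780.4 and 149 CPM in the healthy libraries and Fos at 2283 and 1126 CPM in the Rbpj-deleted libraries, 3729 and 3608 CPM in the control libraries and 5924 and 1863 CPM in the healthy libraries.

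The TGF-β pathway and CSF1 receptor genes showed 0 calls among 17 and 13 tested in either comparison, with medians of -0.14 and -0.05 in Rbpj-deleted tumours and -0.11 and -0.04 in control tumours. Tgfbr1, the signalling receptor, stood at 859.6 and 623 CPM in the Rbpj-deleted libraries, 939.6 and 1071 CPM in the control libraries and 1148 and 1414 CPM in the healthy libraries. Tgfb1, its ligand, stood at 396 and 428 CPM in the Rbpj-deleted libraries, 342 and 302 CPM in the control libraries and 432 and 371 CPM in the healthy libraries, and the inhibitor Smad7 at 776 and 731 CPM in the Rbpj-deleted libraries, 715 and 825 CPM in the control libraries and 769.6 and 887 CPM in the healthy libraries. Tyrobp, the adaptor of Trem2 also known as DAP12, stood at 3853 and 4378 CPM in the Rbpj-deleted libraries, 2561 and 2506 CPM in the control libraries and 3125 and 2545 CPM in the healthy libraries. Notch pathway genes gave 0 calls among 10 tested; Notch2, a receptor, stood at 96.2 and 83.7 CPM in the Rbpj-deleted libraries, 131 and 154 CPM in the control libraries and 127 and 111 CPM in the healthy libraries, and the target Hes1 at 19.9 and 16 CPM in the Rbpj-deleted libraries, 22.5 and 25.3 CPM in the control libraries and 5.75 and 10.7 CPM in the healthy libraries, above healthy brain in all tumour libraries.

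**Figure D4:**
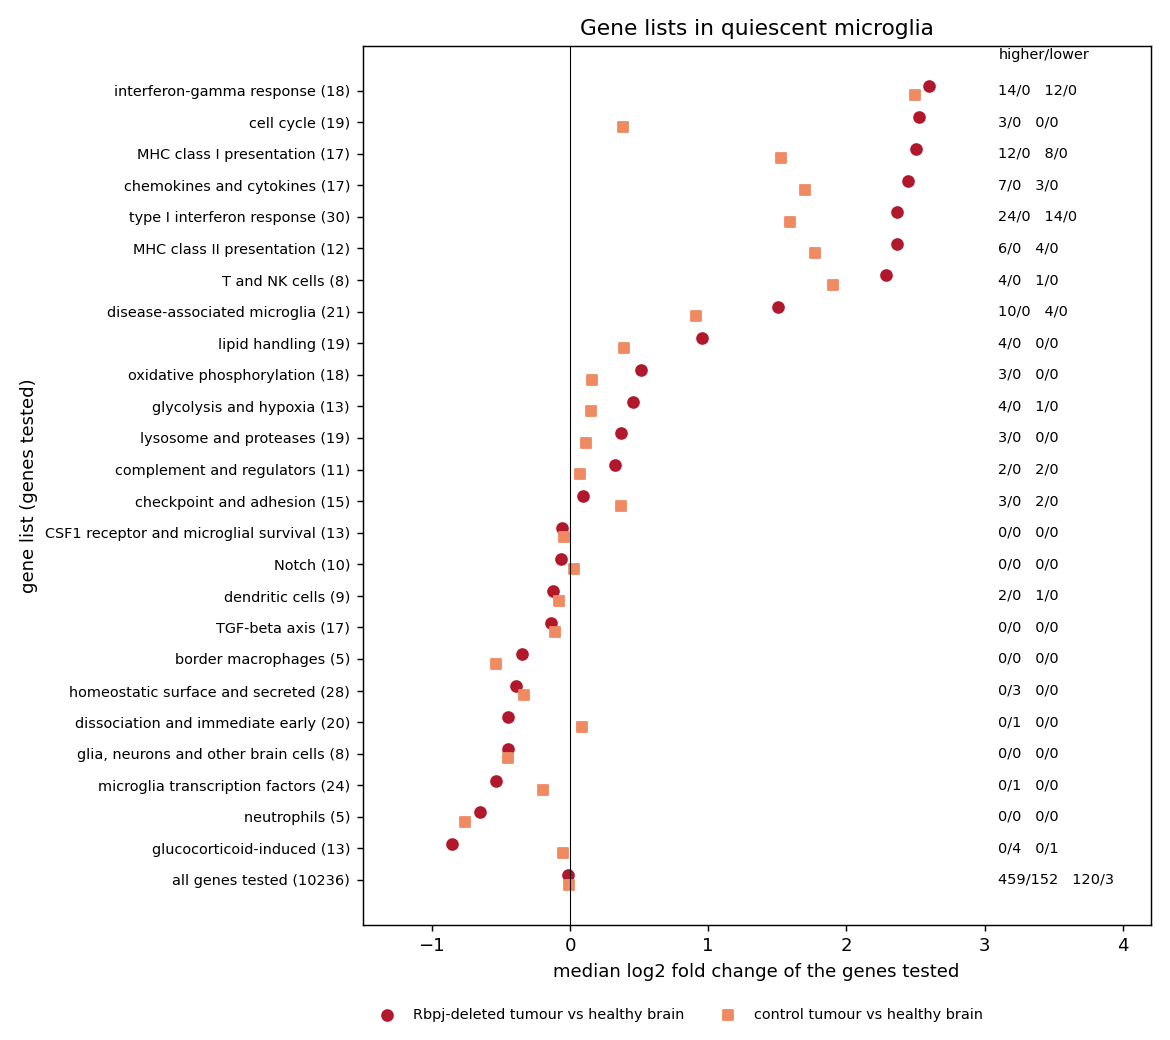
Median log2 fold change of the tested genes of each list in quiescent microglia, for Rbpj-deleted tumours (circles) and control tumours (squares), each against healthy brain; the numbers at the right count the genes called higher and lower in the same order, and the number beside each list name is how many were tested. The interferon-γ list lies at a median of 2.60 and 2.50, while the homeostatic list lies at -0.39 and -0.34 and the TGF-β list at -0.14 and -0.11.

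Some genes known to be induced by glucocorticoids fell in tumour microglia. Glucocorticoids act through the receptor Nr3c1 and dampen inflammatory responses. Of 13 tested, 4 fell and 0 rose in Rbpj-deleted tumours (Ddit4, Fkbp5, Tsc22d3 and Sult1a1), and 1 fell and 0 rose in control tumours (Ddit4). Of all genes 1.48% and 0.0293% were called lower, and 5 and 6 of the 13 estimates were positive in the same order. The median was -0.86 in Rbpj-deleted tumours, -0.05 in control tumours and -0.93 for Rbpj-deleted against control tumours, where 0 of the 13 were called. The control count was 0 without either control replicate, 3 and 2 without Rbpj-deleted replicate 1 or 2, and 2 without healthy replicate 2.

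Ddit4, which encodes the mTOR inhibitor REDD1 (ENSMUSG00000020108, chromosome 10:59949669-59951834), stood at 10.9 and 19.4 CPM in the Rbpj-deleted libraries, 26.2 and 31.2 CPM in the control libraries and 105 and 192 CPM in the healthy libraries. The 3 groups did not overlap, with the lowest values in Rbpj-deleted tumours. Its log2 change was -3.30 ± 0.38 in Rbpj-deleted tumours (edgeR adjusted p = 0.00457) and -2.37 ± 0.38 in control tumours (adjusted p = 0.0324, and 0.281 and 0.312 without control replicate 1 or 2). It was detected in 1.68% and 1.96% of thinned members in Rbpj-deleted tumours, 9.49% and 2.36% in control tumours and 17.9% and 29.4% in the healthy libraries.

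Tsc22d3, which encodes the glucocorticoid-induced leucine zipper, stood at 87.8 and 116 CPM in the Rbpj-deleted libraries, 217 and 249.7 CPM in the control libraries and 550.1 and 373 CPM in the healthy libraries. The groups were ordered as for Ddit4, and the change was -2.18 ± 0.24 in Rbpj-deleted tumours (edgeR adjusted p = 0.0012). Fkbp5, a co-chaperone that limits the receptor, stood at 36.9 and 27.4 CPM in the Rbpj-deleted libraries, 157 and 65 CPM in the control libraries and 248 and 235 CPM in the healthy libraries. Its change in Rbpj-deleted tumours was -2.90 ± 0.40 (edgeR adjusted p = 0.0126, and 0.0682 and 0.205 without Rbpj-deleted replicate 1 or 2). It was found in 5.87% and 4.17% of thinned members in Rbpj-deleted tumours, 24.1% and 11.8% in control tumours and 39.0% and 37.6% in the healthy libraries. Sult1a1, a sulfotransferase, stood at 48.1 and 30.1 CPM in the Rbpj-deleted libraries, 75 and 59.9 CPM in the control libraries and 122 and 133 CPM in the healthy libraries, a change of -1.70 ± 0.24 (edgeR adjusted p = 0.00439). Among the genes not called, Sgk1, a kinase, stood at 1533 and 757 CPM in the Rbpj-deleted libraries, 2156 and 1584 CPM in the control libraries and 2085 and 2063 CPM in the healthy libraries, and Mt2, a metallothionein, at 3.53 and 6.85 CPM in the Rbpj-deleted libraries, 19.5 and 14.3 CPM in the control libraries and 4.83 and 2.8 CPM in the healthy libraries, highest in the control libraries. In thinned members the mean number of UMIs of the whole list was 7.18 and 4.33 in Rbpj-deleted tumours, 11.2 and 7.66 in control tumours and 12.5 and 9.12 in the healthy libraries. Control tumours and healthy brain thus overlapped. Ddit4, Fkbp5 and Tsc22d3 were also lower in tumour than in healthy non-microglial macrophages. Ddit4 stood there at 8.52 and 23.9 CPM in Rbpj-deleted, 11.1 and 11.6 in control and 129 and 98.4 in healthy libraries. Fkbp5 stood at 29.8 and 17.0, 56.5 and 37.7, and 267 and 186 CPM in the same order. Tsc22d3 stood at 94.6 and 164, 108 and 261, and 911 and 721 CPM.

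Other genes that fell in Rbpj-deleted tumours included Mycl, a MYC family factor, at 18.3 and 10.7 CPM in the Rbpj-deleted libraries, 38.2 and 27.8 CPM in the control libraries and 71.9 and 93.6 CPM in the healthy libraries (log2 -2.50 ± 0.29, edgeR adjusted p = 0.0014). Jam3, a junctional adhesion molecule, stood at 13.5 and 9.51 CPM in the Rbpj-deleted libraries, 19.5 and 20.2 CPM in the control libraries and 35.2 and 40.7 CPM in the healthy libraries (log2 -1.71 ± 0.25, adjusted p = 0.00555). Both lay lower in the Rbpj-deleted libraries than in any other, and neither was called between the tumour groups. Peg10, Ralgps1, Myo18b and Tmc7 also fell in Rbpj-deleted tumours, by log2 -2.11, -1.85, -1.71 and -1.67 (edgeR adjusted p from 0.0163 to 0.0257), and the 4 calls were lost without Rbpj-deleted replicate 2 (adjusted p from 0.0523 to 0.0956) and without control replicate 1 (0.0547 to 0.0965). In control tumours the other falls were Ccdc80, at 25 and 26.3 CPM in the Rbpj-deleted libraries, 23.2 and 16 CPM in the control libraries and 44.7 and 55.2 CPM in the healthy libraries, and Rgs7bp, at 44.6 and 34.3 CPM in the Rbpj-deleted libraries, 29.2 and 30.4 CPM in the control libraries and 59.5 and 86.3 CPM in the healthy libraries. Their changes were -1.34 ± 0.25 and -1.29 ± 0.26 (edgeR adjusted p = 0.035 and 0.0474). Without control replicate 1 or 2 the adjusted p was 0.141 and 0.376 for Ccdc80 and 0.323 and 0.384 for Rgs7bp, and without healthy replicate 2 it was 0.13 and 0.163.

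Genes of the disease-associated microglial state, a phagocytic and lipid-handling programme that depends on Trem2, rose in part. Of 21 tested, 10 rose and 0 fell in Rbpj-deleted tumours and 4 rose and 0 fell in control tumours. The list medians were 1.51 and 0.91, and 4.48% and 1.17% of all genes were called higher. Itgax, the integrin CD11c, stood at 64.4 and 73.8 CPM in the Rbpj-deleted libraries, 24 and 29.5 CPM in the control libraries and 6.67 and 5.51 CPM in the healthy libraries. The 3 groups were separate, with the Rbpj-deleted libraries highest, but Itgax was not called between the tumour groups. The change was 3.49 ± 0.23 in Rbpj-deleted tumours (edgeR adjusted p = 0.000142) and 2.12 ± 0.25 in control tumours (adjusted p = 0.00288, and 0.0744 without control replicate 2). The control change was 1.46 in members without any UMI of other lineages (adjusted p = 0.19). Axl, a receptor for dying cells, stood at 84.6 and 150.3 CPM in the Rbpj-deleted libraries, 49.5 and 68.3 CPM in the control libraries and 10 and 6.27 CPM in the healthy libraries, a change of 3.82 ± 0.36 in Rbpj-deleted tumours (edgeR adjusted p = 0.00151). In control tumours it was 2.82 ± 0.37 (edgeR adjusted p = 0.0133, and 0.0829 and 0.161 without control replicate 1 or 2). Fth1, ferritin heavy chain, stood at 8725 and 10729.6 CPM in the Rbpj-deleted libraries, 5725 and 5680.0 CPM in the control libraries and 3660.3 and 2389 CPM in the healthy libraries and rose by log2 1.69 ± 0.24 in Rbpj-deleted tumours (edgeR adjusted p = 0.00483). Apoe, an apolipoprotein, stood at 331 and 797 CPM in the Rbpj-deleted libraries, 555 and 487 CPM in the control libraries and 201 and 196 CPM in the healthy libraries and was not called. The counts were 6 in Rbpj-deleted tumours without Rbpj-deleted replicate 2 or either control replicate, and 1 in control tumours without either control replicate.

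Of 11 tested complement genes 2 rose in each tumour group, C3 and Cfb. Of all genes 4.48% in Rbpj-deleted and 1.17% in control tumours were called higher. C3, the central complement component, stood at 54.5 and 68.5 CPM in the Rbpj-deleted libraries, 68.2 and 56.5 CPM in the control libraries and 3.76 and 2.63 CPM in the healthy libraries, a log2 change of 4.22 ± 0.26 in Rbpj-deleted and 4.24 ± 0.27 in control tumours (edgeR adjusted p = 0.000142 and 0.000158). In members without any UMI of other lineages the control change was 2.57 and was not called (adjusted p = 0.196). The tumour libraries lay within a narrow range far above healthy brain. Cfb had 31 UMIs in Rbpj-deleted tumours, 11 in control tumours and 3 in healthy brain, ratios of 83.8 (95% interval 26.1 to 428) and 67.8 (17.9 to 379) that cover counting error. Of the 31-base words in the last 600 bases of its transcripts, 75.8% are shared with another gene model, Gm20547, so its counts are uncertain. Its call was lost without Rbpj-deleted replicate 2 (edgeR adjusted p = 0.137) or control replicate 2 (0.0578) in Rbpj-deleted tumours, and without any 1 library in control tumours (0.0586 to 0.536).

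Of 17 tested chemokine and cytokine genes, 7 rose in Rbpj-deleted tumours and 3 in control tumours, with medians of 2.45 and 1.70. The shares of all genes called higher were 4.48% and 1.17%. Cxcl16, a membrane-bound chemokine, stood at 235 and 437 CPM in the Rbpj-deleted libraries, 144 and 186 CPM in the control libraries and 55.2 and 46 CPM in the healthy libraries, a change of 2.73 ± 0.31 in Rbpj-deleted tumours (edgeR adjusted p = 0.00261). Tnfsf13b, the B cell survival factor BAFF, stood at 46.2 and 47.2 CPM in the Rbpj-deleted libraries, 22.5 and 29.5 CPM in the control libraries and 7.64 and 12.7 CPM in the healthy libraries, a change of 2.22 ± 0.28 (edgeR adjusted p = 0.00246). Both were highest in the Rbpj-deleted libraries, and neither was called between the tumour groups. Ccl3 and Ccl4, the macrophage inflammatory proteins, were not called, with Ccl4 at 4349.8 and 2254 CPM in the Rbpj-deleted libraries, 4784 and 2724 CPM in the control libraries and 1239 and 1773 CPM in the healthy libraries.

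Lipid handling genes gave 4 rises among 19 in Rbpj-deleted tumours and 0 in control tumours, where 4.48% and 1.17% of all genes were called higher. Cd36, a scavenger receptor, stood at 30.5 and 57.5 CPM in the Rbpj-deleted libraries, 21.7 and 16 CPM in the control libraries and 8.02 and 5.34 CPM in the healthy libraries, a change of 2.69 ± 0.35 in Rbpj-deleted tumours (edgeR adjusted p = 0.0035). The lysosome list gave 3 rises among 19, oxidative phosphorylation 3 among 18, and glycolysis and hypoxia 4 among 13 in Rbpj-deleted tumours, against 0, 0 and 1 in control tumours. The medians of these 4 lists were 0.96, 0.37, 0.51 and 0.46 in Rbpj-deleted tumours. Ass1, an enzyme of arginine synthesis, stood at 15.4 and 25.1 CPM in the Rbpj-deleted libraries, 12 and 5.91 CPM in the control libraries and 0.517 and 0.424 CPM in the healthy libraries and rose by log2 5.35 ± 0.49 in Rbpj-deleted and 4.19 ± 0.53 in control tumours (edgeR adjusted p = 0.000349 and 0.00465). Of its 31-base words 34.4% are shared with other transcripts. The adhesion molecule Vcam1 stood at 46.8 and 49.9 CPM in the Rbpj-deleted libraries, 47.2 and 39.6 CPM in the control libraries and 12.4 and 6.02 CPM in the healthy libraries and rose by log2 2.36 ± 0.32 in Rbpj-deleted tumours (edgeR adjusted p = 0.00516). It was 1 of 3 rises among 15 checkpoint and adhesion genes in Rbpj-deleted tumours, against 2 in control tumours.

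Cell cycle RNA was concentrated in 1 library. Mki67, a proliferation marker, stood at 36.2 and 255 CPM in the Rbpj-deleted libraries, 15.7 and 16 CPM in the control libraries and 3.96 and 5.51 CPM in the healthy libraries, and Top2a, a topoisomerase, at 47.8 and 220.0 CPM in the Rbpj-deleted libraries, 12.7 and 20.2 CPM in the control libraries and 2.3 and 6.52 CPM in the healthy libraries. Rbpj-deleted replicate 2 was far above all others, and neither gene was called. Rrm2, a ribonucleotide reductase subunit, rose and stood at 11.2 and 35 CPM in the Rbpj-deleted libraries, 4.5 and 1.69 CPM in the control libraries and 0.546 and 1.1 CPM in the healthy libraries (log2 4.88 ± 0.68 in Rbpj-deleted tumours, edgeR adjusted p = 0.0073, and 0.0639 without Rbpj-deleted replicate 2). Of 19 tested, 3 rose in Rbpj-deleted tumours and 0 in control tumours, where 4.48% and 1.17% of all genes were called higher. The count was 15 of 20 without Rbpj-deleted replicate 1, 1 of 19 without Rbpj-deleted replicate 2, 1 of 20 without either control replicate and 2 of 20 without healthy replicate 1.

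Between the tumour groups 1 gene was called in quiescent microglia, and 1327 had an unadjusted p under 0.05, among 10236. DESeq2 called 146 among the 1901 genes to which it gave an adjusted p, and gave none for the gene that edgeR called. The count was 248 without Rbpj-deleted replicate 1, 0 without Rbpj-deleted replicate 2 or control replicate 1, 2 without control replicate 2, and 42 and 51 without healthy replicate 1 or 2. The called gene was Ccr7, the chemokine receptor that guides migration to lymph nodes (ENSMUSG00000037944, chromosome 11:99144196-99155077). It stood at 34 and 60.5 CPM in the Rbpj-deleted libraries, 0 and 0.844 CPM in the control libraries and 1.35 and 1.02 CPM in the healthy libraries, so that both Rbpj-deleted libraries were high and the other 4 near 0. The log2 change was 6.84 ± 0.71 (edgeR adjusted p = 0.0257) on 265 UMIs in Rbpj-deleted tumours and 1 in control tumours, a ratio of 116 (95% interval 20.7 to 4605 for counting error). The UMIs came from few cells: 1.47% and 1.96% of thinned members in Rbpj-deleted tumours held one, and the top cell held 42.5% and 20.8% of them. The call was lost without Rbpj-deleted replicate 2 (adjusted p = 0.178), control replicate 1 (0.587) or control replicate 2 (0.133). It was also lost when members were chosen after thinning to 3000 UMIs, at adjusted p = 0.255, and it was not tested in either stricter set of members. Against healthy brain Ccr7 rose by log2 5.26 ± 0.42 in Rbpj-deleted tumours (edgeR adjusted p = 0.000264). Saa3, an acute-phase protein, had 250 UMIs in Rbpj-deleted tumours and 0 in healthy brain, at least 676-fold higher. In Saa3 the top cell held 68.1% and 37.0% of the UMIs in the Rbpj-deleted libraries, and without control replicate 1 or 2 the adjusted p was 0.0724 and 0.0758.

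Quiescent microglia were set beside the Csf1-type microglia and the non-microglial macrophages (border macrophage and monocyte genes above microglial ones) of the same libraries, as a description. Gbp2 stood at 189 and 352 CPM in quiescent cells, 261 and 434 CPM in Csf1-type cells and 489 and 859 CPM in macrophages of Rbpj-deleted tumours. In control tumours it stood at 331 and 256, 734 and 598, and 903 and 682 CPM in the same order. Quiescent cells were the lowest of these 3 classes in every tumour library. Isg15 stood at 155 and 229, 281 and 325, and 705 and 897 CPM in Rbpj-deleted tumours and at 68.2 and 77.6, 280 and 251, and 823 and 1102 CPM in control tumours. Cd74 had the same order of these classes in the 4 libraries. In healthy brain macrophages also stood above quiescent cells, with Cd74 at 1263 and 2649 against 196 and 140 CPM. Isg15 stood there at 56.6 and 103 against 20.2 and 18.1 CPM, and Gbp2 at 13.7 and 36.9 against 5.03 and 9.32 CPM. The log2 change from healthy brain in quiescent cells minus that in macrophages was 2.28 and 1.89 for Cd74 in Rbpj-deleted and control tumours. It was -0.13 and -1.81 for Isg15 and 0.33 and 0.17 for Gbp2, and none was called. The Spp1-type class, which had at least 20 cells in both Rbpj-deleted libraries but in neither control library, was not always above quiescent cells. In Rbpj-deleted tumours it held Gbp2 at 299.9 and 194 CPM, Isg15 at 319 and 155 CPM and Cd74 at 6626 and 3016 CPM, so that in Rbpj-deleted replicate 2 it was below quiescent cells, where Cd74 stood at 6077 CPM. Levels of Csf1-type and Spp1-type cells were scaled by their total counts alone. Fkbp5 lay close together in quiescent and Csf1-type cells, at 36.9 and 27.4 CPM against 42.0 and 25.4 CPM in Rbpj-deleted tumours, 157 and 65.0 CPM against 132 and 67.5 CPM in control tumours, and 248 and 235 CPM against 251 and 216 CPM in healthy brain.

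**Figure D5:**
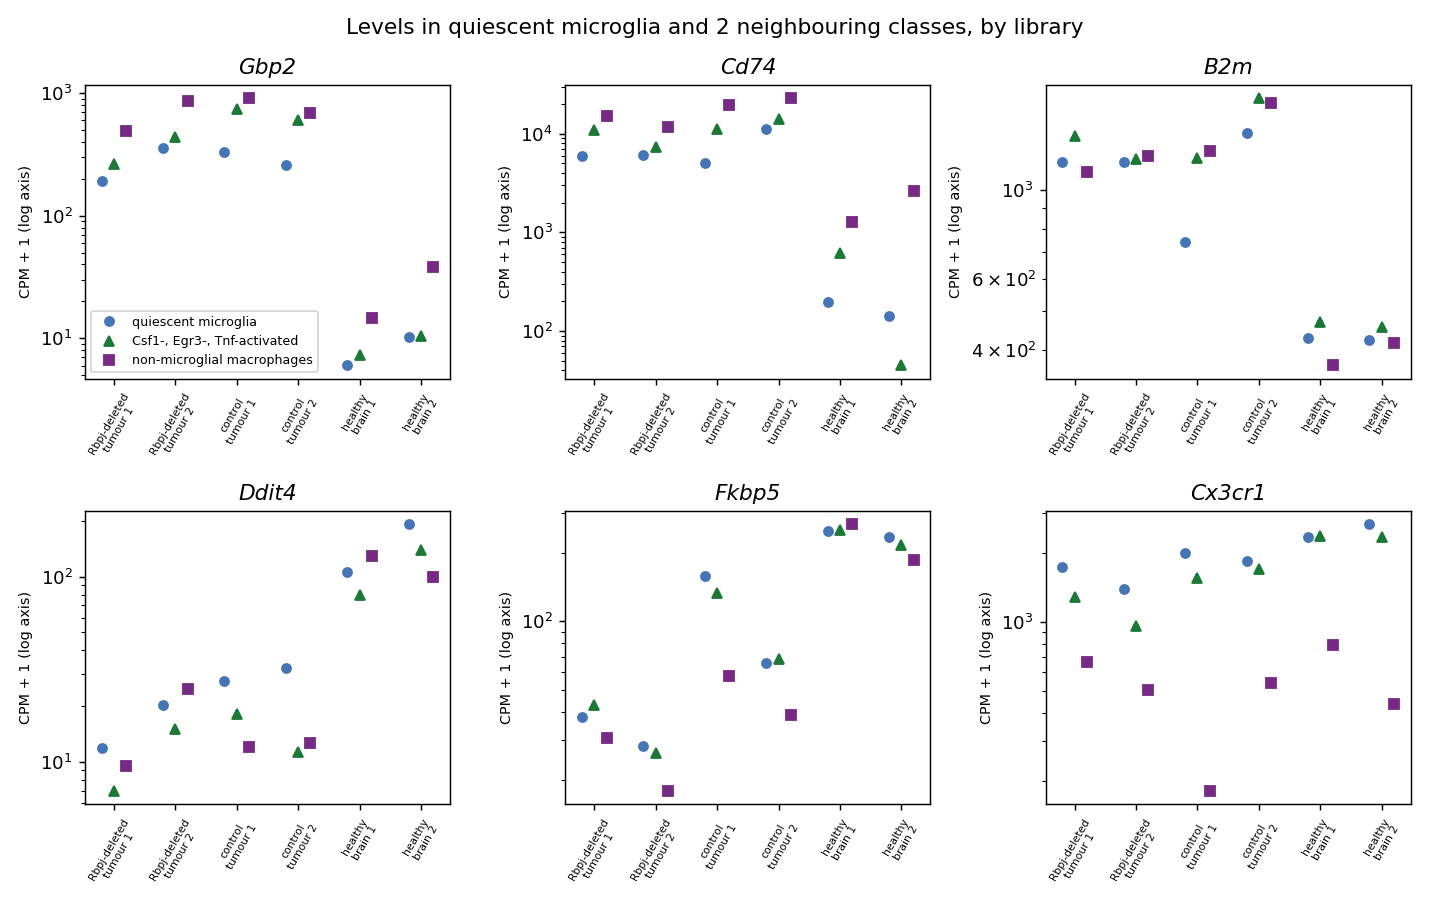
Levels as CPM + 1, on a log axis, of 6 genes in quiescent microglia, Csf1-type microglia and non-microglial macrophages of each library, with Rbpj-deleted tumours left, control tumours in the middle and healthy brain right. Of these 3 classes, quiescent cells have the lowest Gbp2 in each tumour library, at 189 and 352 CPM in Rbpj-deleted and 331 and 256 CPM in control tumours, and Fkbp5 lies close together in quiescent and Csf1-type cells.

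Whether the tumour effect differed between quiescent microglia and macrophages was tested within libraries over 7589 genes. In Rbpj-deleted tumours against healthy brain 0 genes were called by limma (0% of genes), with 863 at an unadjusted p under 0.05. In control tumours against healthy brain and in Rbpj-deleted against control tumours 1 gene was called (0.0132% of genes each), with 1456 and 918 at an unadjusted p under 0.05. The first count was 1 without Rbpj-deleted replicate 1 and 9 without healthy replicate 1. The second was 18 and 423 without control replicate 1 or 2, 6 and 3 without healthy replicate 1 or 2, and 0 without either Rbpj-deleted replicate. The third was 5 and 3 without control replicate 1 or 2 and 0 without Rbpj-deleted replicate 2. The called gene was Gm15056, a predicted gene on chromosome 8, which stood at 13.1 and 20.9 CPM in the Rbpj-deleted libraries, 0 and 0 CPM in the control libraries and 0 and 0 CPM in the healthy libraries in quiescent microglia, and at 91.4 and 86.2, 30.9 and 58.1, and 0 and 0 CPM in macrophages of the same groups.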

How the data were processed

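Single-cell RNA counts of CD45-sorted brain cells were deposited by the authors as 10x 3′ v3 UMI counts per gene and barcode, whole numbers that were not normalized. The submitters' processing notes name kallisto 0.46.0, bustools 0.39.3 and the mm10 build, and the roles of the tools are not given in the sources used here. Symbols and coordinates came from the GENCODE vM21 annotation, and 19 of 27378 gene IDs had no symbol.

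No deposited barcode held under 1000 counts. Barcodes needed 500 genes and at most 10% mitochondrial counts (17 removed), and a barcode with over 10 times more counts in another library was dropped as an index-hopped copy (256 removed). No doublet caller was run. The rule limits but does not remove barcodes of mixed lineage: 6.58% to 9.94% of members in tumours held 1 lymphocyte UMI, and 58.1% and 47.8% of members in Rbpj-deleted tumours held no border macrophage or monocyte UMI. The members and gene lists were chosen with earlier results of these data known.

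Counts of members were summed per library, filtered (filterByExpr) and scaled by TMM (factors 0.948 to 1.05). They were tested over 10236 genes in 1 robust edgeR 4.0.16 quasi-likelihood fit of all 6 libraries, with 3 residual degrees of freedom. CPM are counts scaled to a common total by the TMM-scaled library size, and an SE is the size of the log2 fold change divided by the square root of its F statistic. On simulated data with the libraries' depths, the fit recovered 33% of 2-fold and 95% of 4-fold changes among 100 genes each, with 5 false calls. The changed genes all lay above 20 CPM, and each gene's spread came from the fitted trend. The simulated libraries held no healthy split and no added difference between replicates. These rates therefore do not carry over to the real libraries.

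The difference between quiescent microglia and macrophages was tested with limma 3.58.1 on within-library log2 CPM differences (prior count 2, mean of at least 10 CPM). Lists were described by counts and medians, without set tests. Thinning drew each cell's UMIs without replacement to a fixed number, leaving out shallower cells. Named genes are up to 10 rises and 10 falls per comparison that passed the threshold of 0.05, reached 20 CPM in the higher group and did not overlap between libraries, and up to 4 genes of smallest p per list. These leave out the rule's genes and predicted, ribosomal, mitochondrial, antigen receptor and sex-linked genes. Identity genes, the top genes of the healthy split, and Mki67, Top2a, Sgk1, Ccl4, Fos, Fosb, Rbpj and Trp53 were added, the Mki67 to Trp53 group after its values were seen. Alternatives were DESeq2 1.42.0, other scalings, filters and member rules, a replicate term, a batch term for the healthy split, and each library left out. A member rule with at least 10 marker UMIs was added after the data were seen. Some listed genes are counted but not reported here by name. R 4.3.3 and Python 3.11.15 were used.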

Additional observations from a re-analysis of the deposited data

Results flagged for a closer look

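Gm15056 is given because its tumour effect differed between quiescent microglia and non-microglial macrophages of the same libraries. The log2 difference, quiescent microglia minus macrophages, was -6.82 ± 0.39 for control tumours against healthy brain (limma adjusted p = 0.00506) and 5.17 ± 0.39 for Rbpj-deleted against control tumours (adjusted p = 0.0314). In quiescent microglia it stood at 13.1 and 20.9 CPM in the Rbpj-deleted libraries, 0 and 0 CPM in the control libraries and 0 and 0 CPM in the healthy libraries. In macrophages it stood at 91.4 and 86.2 CPM in the Rbpj-deleted libraries, 30.9 and 58.1 CPM in the control libraries and 0 and 0 CPM in the healthy libraries. With 4 quiescent libraries at 0 both differences depend on the prior count of 2. The call for control tumours against healthy brain was lost without either Rbpj-deleted replicate, and that for Rbpj-deleted against control tumours without either Rbpj-deleted or either healthy replicate. The cause was not tested.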

How the results depend on the processing

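No named change reversed under an alternative that tested it. Calls for Rbpj-deleted tumours against healthy brain numbered 611, and 1012 with DESeq2, 1442 with no low-count filter, 164 with members limited to cells without any activation gene, and 356 with the healthy split as a batch. For control tumours against healthy brain there were 123, and 375, 625, 16 and 44 with DESeq2, no filter, members without any activation gene, and members without any UMI of other lineages. For Rbpj-deleted against control tumours there was 1, and 146, 438, 3, 0, 38, 0, 2 and 16 with DESeq2, no filter, a non-robust fit, no activation gene, no other lineage, thinning to 3000 UMIs, no quality filter, and the split as a batch. DESeq2 gave an adjusted p to only 1901 genes there. Leaving out 1 library gave 157 to 1191, 34 to 177 and 0 to 248 calls in these comparisons, and 0 to 9, 0 to 423 and 0 to 5 for the difference from macrophages. That difference for Rbpj-deleted against control tumours had 0 calls with library size alone. Of the named control calls, 9 and 14 of 37 remained without any activation gene and without any UMI of other lineages. Library replicate numbers did not pair the samples (correlations 0.03, 0.18 and 0.06), and a replicate block gave 623, 181 and 19 calls, and 3 and 0 for the difference from macrophages in control tumours against healthy brain and in Rbpj-deleted against control tumours.

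The mean share of quiescent cells was 14.2%, 15.2% and 58.4% in Rbpj-deleted tumours, control tumours and healthy brain with no activation gene allowed, 28.1%, 36.0% and 68.0% with no UMI of other lineages, and 76.1%, 84.3% and 99.5% after thinning to 3000 UMIs. With 1 library left out it was 44.5% to 71.2%, 54.9% to 65.4% and 96.8% to 97.4%. The mean share with an interferon-γ UMI, 72.6%, 61.2% and 35.4% at 2000 UMIs, was 56.4% in Rbpj-deleted tumours and 20.01% in healthy brain at 1000 UMIs, 83.4%, 73.4% and 47.1% at 3000, and 88.9%, 88.8% and 63.6% unthinned. For MHC class II it was 99.6%, 95.9% and 90.3% at 2000 UMIs, 97.2%, 89.2% and 69.4% at 1000, and in healthy brain 96.8% at 3000 and 95.9% unthinned. For glucocorticoid-induced genes it was 93.9%, 96.5% and 99.6% at 2000 UMIs, 84.5%, 89.2% and 97.0% at 1000, 98.2% in Rbpj-deleted tumours and 99.96% in healthy brain at 3000, and 98.0% in Rbpj-deleted tumours unthinned. The causes were not tested. The few members of the control libraries (151 and 161) and 2 libraries a group limit all comparisons.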

Other observations

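1500015O10Rik, chosen after its values were seen, stood at 0 and 0.381 CPM in the Rbpj-deleted libraries, 157 and 59.1 CPM in the control libraries and 0.0575 and 0 CPM in the healthy libraries in quiescent microglia, and all 209 of its UMIs in control replicate 1 were in 1 cell.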
